A study of Mus musculus with 10 samples.

Results

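The Hox genes encode homeodomain transcription factors that stand in 4 clusters of the mouse genome, HoxA on chromosome 6, HoxB on chromosome 11, HoxC on chromosome 15 and HoxD on chromosome 2. All protein-coding genes whose symbol is Hox, a cluster letter and a number were taken from the deposited gene table, which gave 35 of its 29268 genes. They fell into 11 HoxA, 8 HoxB, 7 HoxC and 9 HoxD genes and carried 34 symbols, since *Hoxd4* is listed under 2 identifiers. *Hoxb1*, *Hoxb13*, *Hoxc12*, *Hoxc13* and *Hoxd13* have no row in the table, so 5 symbols of the mouse family were not analysed here. Of the 35 genes, 28 had enough counts to be tested, and 22 of these had a mean above 1 FPKM (fragments scaled to the length of the gene and to the depth of the library) in either group.

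RNA was sequenced from the uterus of 5 HSD17B1TG and 5 wild-type (WT) FVB/N females aged 4 months, and each mouse gave 1 library. HSD17B1TG mice carry human *HSD17B1* cDNA, which encodes an enzyme that converts estrone to estradiol, behind a CMV-enhanced chicken beta-actin promoter that is active throughout the body. The line is kept heterozygous, and the WT females lack the transgene. Estrous cycles are absent in HSD17B1TG females, and the phase of the WT females was not matched, so the transgene and the state of the cycle cannot be told apart. The human transgene is not a row of the mouse table, and mouse *Hsd17b1* (0.992 ± 0.291 FPKM in HSD17B1TG and 0.918 ± 0.375 in WT, SD, n = 5 each) cannot check the labels. Total counts lay between 14817228 and 23271988 per mouse. Mitochondrial genes took 2.58% to 3.37% of the counts in WT, 1.94% and 2.49% in TG2 and TG3, and 5.74%, 6.87% and 7.57% in TG1, TG4 and TG5, and the part of this difference in the Hox values was not tested. HSD17B1TG mice are called TG1 to TG5 here and WT mice WT1 to WT5, numbers that pair no mice. TG1 and WT4 had the highest smooth muscle markers of their groups, so calls are also given without them.

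Within a cluster, Hox genes are numbered from 1 at the 3′ end to 13 at the 5′ end, and genes of the same number in different clusters, called a paralogue group, descend from a common ancestral gene. In the embryo, low numbers are active towards the head and high numbers towards the tail. In the female reproductive tract, the genes of the high-numbered end of HoxA are laid out along the Müllerian duct, with *Hoxa9* in the future oviduct, *Hoxa10* in the uterus, *Hoxa11* in the uterus and cervix and *Hoxa13* in the upper vagina. *Hoxa10* and *Hoxa11* remain active in the adult endometrial stroma, where they are known as hormone-responsive genes needed for implantation and decidualization.

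The promoters of 4 Hox genes that changed are shown so that genes that fell can be compared with a gene that rose, and because steroid receptors are known to act through short DNA elements. Each is the 250 bases before a RefSeq transcript start in GRCm38.p6, written 5′ to 3′ on the strand of the gene, with CG dinucleotides in capitals. The first 3 belong to genes that fell in HSD17B1TG and the last to a gene that rose.
Hoxa10, chr6:52234940-52235189, minus strand: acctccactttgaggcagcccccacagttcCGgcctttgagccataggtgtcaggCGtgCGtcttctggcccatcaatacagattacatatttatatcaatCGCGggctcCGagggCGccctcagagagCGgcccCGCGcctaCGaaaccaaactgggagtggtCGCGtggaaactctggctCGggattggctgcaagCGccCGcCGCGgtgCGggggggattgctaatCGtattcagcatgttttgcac
Hoxa11, chr6:52245811-52246060, minus strand: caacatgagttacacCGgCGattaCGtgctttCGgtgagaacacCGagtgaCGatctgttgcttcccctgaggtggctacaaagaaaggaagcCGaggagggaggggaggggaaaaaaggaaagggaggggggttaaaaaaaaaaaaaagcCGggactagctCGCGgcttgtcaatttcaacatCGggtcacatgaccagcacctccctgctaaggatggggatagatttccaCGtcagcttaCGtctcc
Hoxd11, chr2:74682073-74682322, plus strand: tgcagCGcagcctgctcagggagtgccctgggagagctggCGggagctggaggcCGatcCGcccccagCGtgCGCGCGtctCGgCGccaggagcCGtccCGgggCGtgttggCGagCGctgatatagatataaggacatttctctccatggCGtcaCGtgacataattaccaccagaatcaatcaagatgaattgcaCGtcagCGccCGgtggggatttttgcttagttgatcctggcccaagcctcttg
Hoxb4, chr11:96318017-96318266, plus strand: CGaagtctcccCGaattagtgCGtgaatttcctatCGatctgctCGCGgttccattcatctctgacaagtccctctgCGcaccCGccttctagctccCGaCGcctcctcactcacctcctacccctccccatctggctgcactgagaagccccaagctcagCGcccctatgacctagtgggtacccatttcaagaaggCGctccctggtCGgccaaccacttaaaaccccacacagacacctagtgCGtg
The *Hoxa10* and *Hoxd11* stretches lie inside the spans of these genes, which begin further upstream, and the *Hoxa11* stretch lies inside the span of the noncoding gene *Hoxa11os* on the other strand. These stretches hold 20, 13, 20 and 14 CG dinucleotides in the order shown. *Hoxa10* and *Hoxd11* each have another RefSeq start further upstream (chr6:52240855-52241104 and chr2:74679308-74679557, not shown). Those stretches hold 7 and 2, so the CG counts of these 2 genes depend on the start. RefSeq's promoter table, which gives 250 bases before and 50 after each start, matched 20 of the 34 symbols with 22 starts. Their median was 14.5 CG dinucleotides, with a range from 4 to 45, against a median of 7 over the 32851 promoters of the table. The palindromic estrogen response element GGTCANNNTGACC was in 0 of the 22 Hox promoters and in 0.0700% of all promoters. The palindromic progesterone response element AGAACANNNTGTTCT was also in 0 of 22, against 0.00913% of all promoters. TGATNNAT, a motif of HOX proteins bound with PBX, was in the promoters of *Hoxa2*, *Hoxb8* and the shown one of *Hoxd11*, which is 3 of 22 against 8.85% of all promoters. TATAAA was in those of *Hoxb8*, *Hoxd4* and the shown one of *Hoxa10*, again 3 of 22, against 13.6% of all. Both strands were searched, and these letters are a description of short windows only.

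In the WT uterus, Hox transcripts came mainly from the 5′ sides of HoxA and HoxD and from the middle of HoxB, as the map of mean levels by cluster and paralogue group shows. The highest mean FPKM in WT belonged to *Hoxa10* (133 ± 73.4, SD, n = 5) and *Hoxa11* (86.6 ± 45.4), followed by *Hoxd10* (53.3 ± 22.6), *Hoxd9* (49.6 ± 20.4) and *Hoxb6* (37.8 ± 8.39). The spread between mice was wide, but within the mice *Hoxa10* was above *Hoxa11* in 5 of 5 WT mice, and each later gene was below the one before it in 4 of 5. HoxC was low throughout, and its highest gene *Hoxc6* reached 2.41 ± 1.66 FPKM in WT. *Hoxa13* and *Hoxd12*, the listed genes that lie closest to the 5′ end of their clusters, reached no more than 0.174 and 0.127 FPKM in any mouse. The 7 genes that were not tested had at most 31 counts and 0.791 FPKM in any mouse. Neither DESeq2 nor edgeR without the filter on low counts gave any of them an adjusted p under 0.05, although *Hoxa13* was higher at an unadjusted p under 0.05 in the latter.

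**Figure D1:**
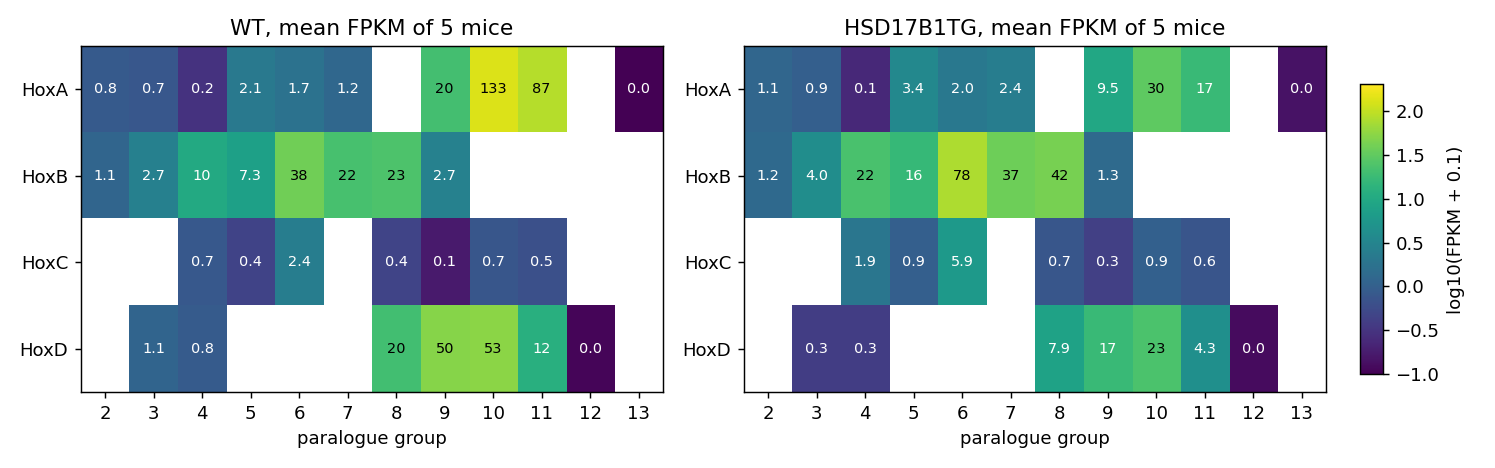
Mean FPKM of each Hox gene by cluster (rows) and paralogue group (columns, drawn from 2) in the 5 WT mice (left) and the 5 HSD17B1TG mice (right), coloured on a log10(FPKM + 0.1) scale, with white where the cluster has no gene or none is listed; for *Hoxd4*, the row with the higher WT level is drawn. The brightest cell is *Hoxa10* in WT (133 FPKM) and *Hoxb6* in HSD17B1TG (77.5 FPKM).

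In the uterus of HSD17B1TG mice, *Hoxa10* and *Hoxa11* were 4.40-fold and 5.14-fold lower than in WT, and *Hoxd8*, *Hoxd9* and *Hoxd11* were lower by 2.51-fold to 2.87-fold. *Hoxb4* and *Hoxb5* were each 2.201-fold higher. A gene was called changed when its adjusted p-value was under 0.05 in edgeR's quasi-likelihood test, its fold change was over 2 and its mean was over 1 FPKM in either group. By this rule 2 of the 28 Hox genes tested rose and 5 fell, whereas of all 16993 genes tested 2.16% rose and 2.08% fell. The same thresholds in DESeq2 called 3 Hox genes up and 8 down, against 4.17% and 3.07% of the 21712 genes with an adjusted p-value. *Hoxb6* was the further gene that rose there, and *Hoxb9*, *Hoxd3* and *Hoxd10* were those that fell. The median log2 fold change of the 28 genes was 0.44, beside 0.0021 over all genes tested, and 18 were higher and 10 lower in HSD17B1TG. Both values rested in part on TG1, since without it the median was 0.11 and 14 genes were higher and 14 lower. The median of the absolute log2 fold change was 1.10, beside 0.347 over all genes.

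The sign of the difference varied with the position in a cluster and with the cluster, as the plot of fold changes by paralogue group shows. In HoxA, groups 2, 3, 5, 6 and 7 had positive log2 fold changes and groups 9, 10 and 11 had negative ones. In HoxB, all 7 genes of groups 2 to 8 were positive and *Hoxb9* was negative. The 6 HoxC genes tested were all positive, including groups 10 and 11, and the 6 HoxD genes tested were all negative, including groups 3 and 4. The 28 directions were the same with DESeq2's size factors in edgeR. Scaling by library totals alone put the median log2 fold change of all genes at -0.17 and turned *Hoxb2* from 0.15 to -0.0073, with the other 27 directions kept. With that scaling *Hoxb4* and *Hoxb5* were no longer called, so 0 Hox genes rose (6 were higher at an unadjusted p under 0.05 in edgeR), against 1.68% of all genes. It called 7 Hox genes down, *Hoxb9* and *Hoxd3* among them, and 494 of all 16993 genes. Without TG1, 24 of the 28 directions were kept, and *Hoxa3*, *Hoxa6*, *Hoxc10* and *Hoxc11*, none of which passed, turned negative. Without TG1 and WT4, 26 were kept and *Hoxa6* and *Hoxc11* turned negative.

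**Figure D2:**
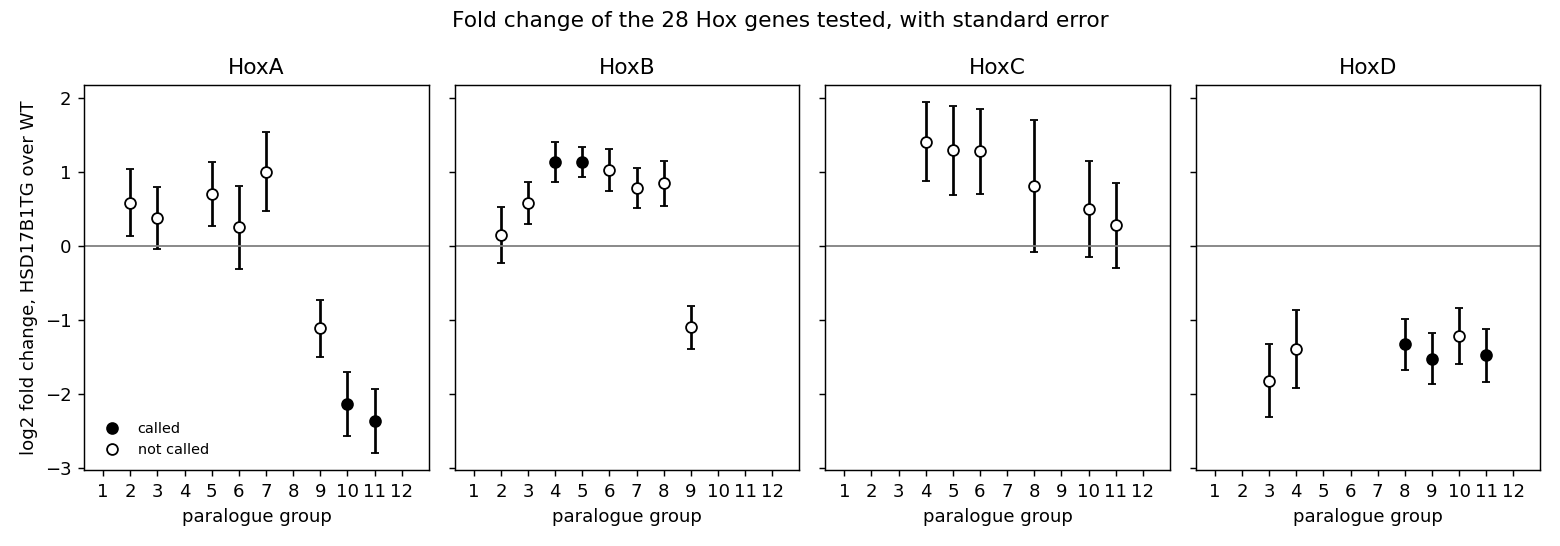
Log2 fold change of HSD17B1TG over WT (edgeR, 5 mice per group) against paralogue group in each cluster, with bars of 1 standard error; filled points are genes called changed. Groups 9 to 11 of HoxA reach down to -2.36 while groups 2 to 7 lie between 0.25 and 1.01, and in HoxB the sign turns between *Hoxb8* (0.85) and *Hoxb9* (-1.10).

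*Hoxa10* (ENSMUSG00000000938, chr6:52231197-52240854, minus strand), which marks the uterine part of the duct, was at 48.3, 27.8, 21.7, 31.1 and 22.9 FPKM in TG1 to TG5 and at 66.8, 161, 182, 43.3 and 210 FPKM in WT1 to WT5. All HSD17B1TG mice except TG1 were below every WT mouse, and the groups overlapped only through TG1 and WT4. The log2 fold change was -2.14 (SE 0.435, adjusted p = 0.0268 in edgeR), and an exact permutation of the group labels on log2(FPKM + 1), two-sided, gave p = 0.0159, where 0.00794 is the smallest value that 5 against 5 mice allow. WT mice themselves fell apart, with WT2, WT3 and WT5 at 161 FPKM or more and WT1 and WT4 at 66.8 or less.

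*Hoxa11* (ENSMUSG00000038210, chr6:52242106-52245810, minus strand), the gene of uterus and cervix, was also low in all HSD17B1TG mice and in WT4. Its levels were 27.4, 12.6, 12.3, 18.4 and 14.1 FPKM in TG1 to TG5 and 52.4, 103, 126, 25.6 and 126 FPKM in WT1 to WT5. Again only TG1 and WT4 overlapped. The log2 fold change was -2.36 (SE 0.433, adjusted p = 0.0224 in edgeR, exact permutation p = 0.0159). Of the exon bases of *Hoxa11*, 35.0% are shared with *Hoxa11os*, and the strand setting of the counting is not given in the sources used here, so reads of the 2 genes cannot be told apart. *Hoxa9*, the gene of the future oviduct, was at 9.54 ± 4.51 FPKM in HSD17B1TG and 20.5 ± 9.08 in WT, with a log2 fold change of -1.11 (SE 0.39) that did not pass (adjusted p = 0.103 in edgeR, exact permutation p = 0.0556).

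**Figure D3:**
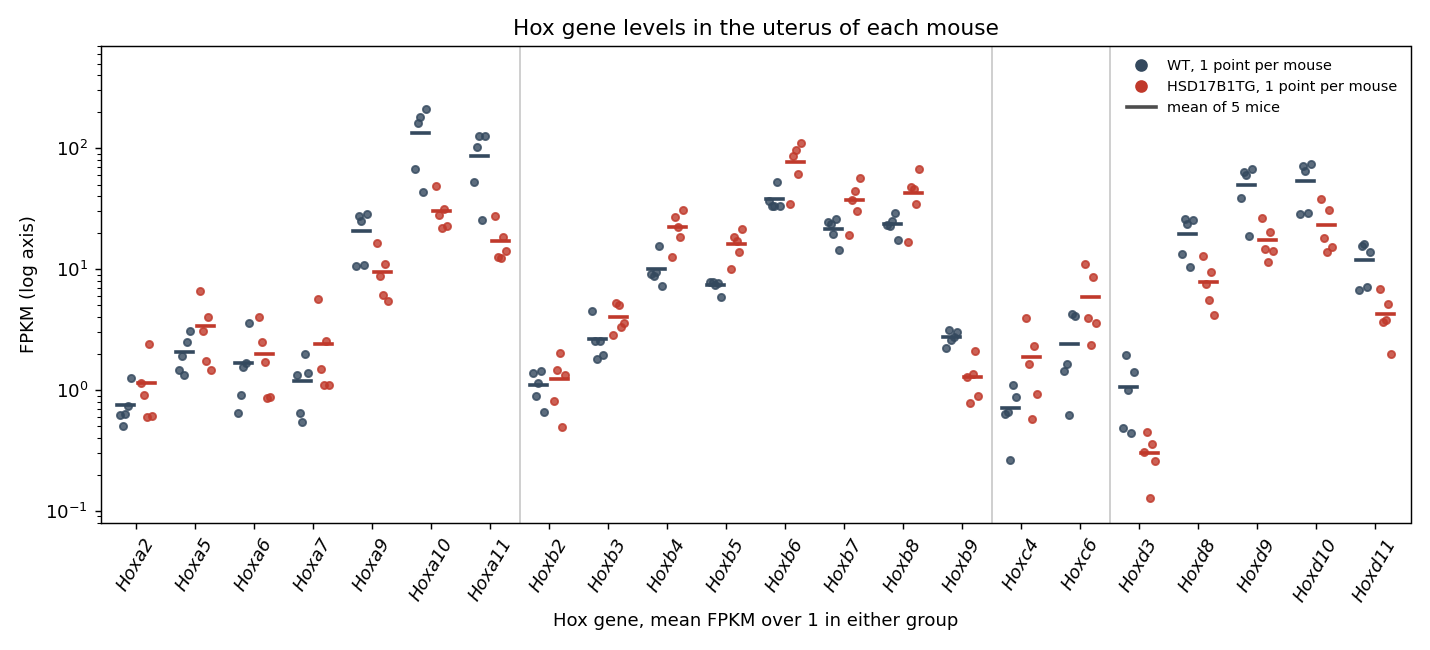
FPKM (log axis) of the 22 Hox genes with a mean over 1 in either group, with 1 point per mouse, WT dark and HSD17B1TG red, and bars at the group means; vertical lines part the clusters. *Hoxa10* runs from 43.3 to 210 in WT and from 21.7 to 48.3 in HSD17B1TG, and *Hoxb5* and *Hoxb9* are the genes whose groups do not overlap.

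In HoxD, all 4 genes of groups 8 to 11 were lower in HSD17B1TG and 3 of them fell in edgeR. These calls depended on the tool, since DESeq2 called all 4 down, limma on log2(FPKM + 1) called *Hoxd11* alone and limma voom called 0 of them (4 had an unadjusted p under 0.05 in edgeR), against 0.865% of all genes called down by limma on log2(FPKM + 1) and 1.11% by limma voom. *Hoxd9* (ENSMUSG00000043342, chr2:74697727-74700208, plus strand) was at 26.5, 14.7, 11.4, 20.1 and 14.05 FPKM in TG1 to TG5 and at 38.9, 63.3, 59.5, 18.7 and 67.4 FPKM in WT1 to WT5. WT4 was the low WT mouse here as well and lay below TG1 and TG4. It had a log2 fold change of -1.52 (SE 0.352, adjusted p = 0.037 in edgeR, exact permutation p = 0.0238). *Hoxd11* was at 6.88, 3.66, 3.79, 5.14 and 1.998 FPKM in HSD17B1TG and at 6.77, 15.5, 16.1, 7.14 and 13.9 FPKM in WT, and TG1 alone reached into the WT range. Its log2 fold change was -1.48 (SE 0.359, adjusted p = 0.0414 in edgeR). *Hoxd8* was at 12.73, 7.48, 5.54, 9.40 and 4.19 FPKM in HSD17B1TG and at 13.4, 25.8, 23.5, 10.4 and 25.3 FPKM in WT. It passed narrowly, with a log2 fold change of -1.33 (SE 0.347, adjusted p = 0.049 in edgeR).

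*Hoxd10* did not pass (23.2 ± 10.6 FPKM in HSD17B1TG and 53.3 ± 22.6 in WT, log2 fold change -1.21, adjusted p = 0.0759 in edgeR). At the other end of the cluster, *Hoxd3* was at 0.3005 ± 0.120 FPKM in HSD17B1TG and 1.06 ± 0.639 in WT, with a log2 fold change of -1.82 (SE 0.495, adjusted p = 0.0531 in edgeR). Of its exon bases, 62.8% lie in other annotated genes, among them the *Hoxd4* row that was not tested. The tested *Hoxd4* row was below 1 FPKM in both groups, at 0.2999 ± 0.142 in HSD17B1TG and 0.787 ± 0.458 in WT.

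In HoxB, all 7 genes of groups 2 to 8 were higher and 2 of them rose. *Hoxb5* (ENSMUSG00000038700, chr11:96303336-96306121, plus strand) was at 9.94, 18.3, 17.2, 13.8 and 21.6 FPKM in TG1 to TG5 and at 7.84, 7.84, 7.41, 7.65 and 5.91 FPKM in WT1 to WT5. Every HSD17B1TG mouse was above every WT mouse, and the WT mice lay close together. The log2 fold change was 1.14 (SE 0.201, adjusted p = 0.0211 in edgeR, exact permutation p = 0.00794, the smallest possible). *Hoxb4* (chr11:96318267-96321638, plus strand) was at 12.6, 26.9, 22.3, 18.3 and 30.5 FPKM in HSD17B1TG and at 9.13, 8.80, 9.42, 15.5 and 7.31 FPKM in WT. WT4 was the highest WT mouse and TG1 the lowest HSD17B1TG mouse, and they were the only mice that overlapped. It had a log2 fold change of 1.14 (SE 0.266, adjusted p = 0.0379 in edgeR, exact permutation p = 0.0159).

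*Hoxb6*, the most abundant HoxB gene, was at 34.7, 85.3, 95.7, 60.8 and 111 FPKM in HSD17B1TG and at 36.7, 33.0, 33.4, 52.6 and 33.4 FPKM in WT. All HSD17B1TG mice but TG1 were above all WT mice, and the log2 fold change of 1.03 (SE 0.283) missed the threshold narrowly (adjusted p = 0.0544 in edgeR, exact permutation p = 0.0238). *Hoxb7* and *Hoxb8* had log2 fold changes of 0.79 and 0.85 and did not pass in edgeR (adjusted p = 0.0961 and 0.109). *Hoxb2* and *Hoxb3*, at the 3′ end of the cluster, had 0.15 and 0.58, and 52.9% of the exon bases of *Hoxb3* are shared with *Hoxb3os*.

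*Hoxb9* (ENSMUSG00000020875, chr11:96271457-96276595, plus strand), next to *Hoxb8* on the 5′ side, was lower. It was at 1.27, 0.782, 1.36, 2.12 and 0.899 FPKM in TG1 to TG5 and at 2.21, 3.11, 2.60, 2.77 and 3.02 FPKM in WT1 to WT5. The groups did not overlap, although the gene was low in all mice and its log2 fold change of -1.10 (SE 0.292) missed the threshold (adjusted p = 0.0511 in edgeR, exact permutation p = 0.00794, the smallest possible). Of the 28 Hox genes tested, *Hoxb5* was thus the 1 that lay higher and *Hoxb9* the 1 that lay lower in all HSD17B1TG mice than in all WT mice, beside 4.04% and 2.65% of all genes tested.

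Genes at the 3′ end of HoxA and the whole of HoxC were low, and in edgeR none of them passed in either direction. Of the 5 tested genes of HoxA groups 2 to 7, 0 had an unadjusted p under 0.05, and of the 6 tested HoxC genes 2 did, both higher. DESeq2, limma voom and limma on log2 FPKM also called 0 of them. In edgeR the unadjusted p of 0.0476 of *Hoxc6* went with an adjusted p of 0.187, so such unadjusted p-values were common over all genes. *Hoxc6* was at 11.1, 3.96, 2.34, 8.52 and 3.55 FPKM in TG1 to TG5 and at 1.44, 1.64, 0.618, 4.26 and 4.08 FPKM in WT1 to WT5. TG1 and TG4, with mitochondrial shares of 5.74% and 6.87%, stood highest, but TG5, with the highest share (7.57%), was below TG2 (1.94%). WT3 was lowest, and the groups overlapped (log2 fold change 1.29, SE 0.576, adjusted p = 0.187 in edgeR). *Hoxc4* had 1.89 ± 1.34 FPKM in HSD17B1TG and 0.705 ± 0.308 in WT, with TG1 highest at 3.97 (log2 fold change 1.41, adjusted p = 0.126). Among the low HoxA genes, *Hoxa5* was at 3.37 ± 2.08 and 2.05 ± 0.734 FPKM, *Hoxa7* at 2.38 ± 1.93 and 1.18 ± 0.591, *Hoxa6* at 1.997 ± 1.33 and 1.67 ± 1.15 and *Hoxa2* at 1.14 ± 0.748 and 0.751 ± 0.299 in HSD17B1TG and WT, respectively. In *Hoxa5*, *Hoxa6* and *Hoxa7*, TG1 was again the highest mouse, at 6.60, 4.05 and 5.67 FPKM.

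The leading Hox gene of the tissue differed between the groups. *Hoxa10* was the most abundant Hox gene in 4 of 5 WT mice and *Hoxb6* in 4 of 5 HSD17B1TG mice. The exceptions were WT4, led by *Hoxb6*, and TG1, led by *Hoxa10*. Summed over all Hox genes, FPKM was 334 ± 27.7 in HSD17B1TG and 494 ± 163 in WT. HoxA made up 20.4% ± 9.16 of this sum in HSD17B1TG and 46.8% ± 11.96 in WT, and HoxD 16.3% ± 7.33 and 26.9% ± 3.20. HoxB made up 59.8% ± 18.9 in HSD17B1TG and 25.1% ± 13.8 in WT. The HoxB share ran from 51.7% to 76.8% in TG2 to TG5 and from 12.9% to 32.5% in WT1, WT2, WT3 and WT5, with 30.8% in TG1 and 45.8% in WT4.

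**Figure D4:**
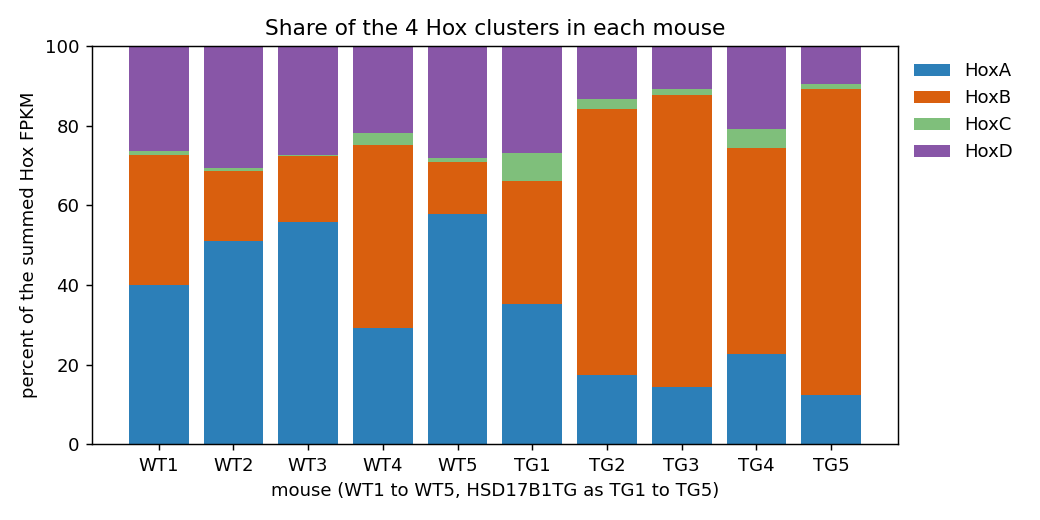
Share of each cluster in the summed Hox FPKM (percent, bars stacked to 100) for each WT mouse (left) and HSD17B1TG mouse (right). HoxB takes 51.7% to 76.8% in TG2 to TG5, whereas TG1 (30.8%) and WT4 (45.8%) lie away from the other mice of their groups.

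The 9 smooth muscle markers summed to 7358 FPKM in TG1 and 5785 in WT4, against 868 to 3090 in the other HSD17B1TG mice and 408 to 2064 in the other WT mice. All 9 were higher in HSD17B1TG on average, but edgeR called 0 of them, with 0 at an unadjusted p under 0.05 and 0 called by DESeq2, limma voom or limma on log2 FPKM. The smallest p-values were those of *Smtn*, *Lmod1* and *Myh11* (log2 fold changes 1.11, 1.204 and 0.86, adjusted p = 0.266, 0.337 and 0.536). The part of the muscle in the Hox values was not tested. Without TG1 and WT4, a choice made after the data were seen, edgeR called 5 Hox genes up (*Hoxb4* to *Hoxb8*) and 8 down (*Hoxa9*, *Hoxa10*, *Hoxa11*, *Hoxd3*, *Hoxd8*, *Hoxd9*, *Hoxd10* and *Hoxd11*), while the calls over all genes rose to 6.64% up and 5.06% down. *Hoxa10* then had a log2 fold change of -2.59 and *Hoxb4* one of 1.497.

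Of the 8 stroma markers, the cells in which *Hoxa10* and *Hoxa11* are known to be active, 7 were lower in HSD17B1TG and 3 fell (*Hand2*, *Pdgfra* and *Thy1*), with a median log2 fold change of -1.06, while DESeq2 called 4 and each limma fit 2 down. They summed to 513 to 1835 FPKM in HSD17B1TG and 1379 to 1984 in WT, and none was at 0 in any mouse. *Lum* and *Dcn*, proteoglycans of fibroblasts, had log2 fold changes of 0.51 and -0.10, so the markers did not move together. The sums consist mostly of *Lum*, *Dcn*, *Dpt* and *Col1a1*, so they do not show the called markers. *Hand2* was at 3.85 to 8.17 FPKM in HSD17B1TG and 11.4 to 33.2 in WT, and *Pdgfra* at 6.61 to 17.4 and 25.3 to 66.8 FPKM. The groups did not overlap in either gene, and TG1 was the highest HSD17B1TG mouse and WT4 the lowest WT mouse in both, as in *Hoxa10* and *Hoxa11*. Fewer stromal cells and less RNA per cell cannot be told apart in RNA of the whole uterus, and the part of the stroma in these results was not tested.

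The 11 epithelium markers stood beside the HoxB genes. In HSD17B1TG 10 of 11 were higher, with a median log2 fold change of 1.24 and summed levels from 925 to 4055 FPKM, against 519 to 1971 in WT. In edgeR 0 passed, although 7 had an unadjusted p under 0.05, all higher, while DESeq2 called 3 up and limma voom and limma on log2 FPKM 1 each. The smallest p-values were those of *Elf3*, *Cldn4* and *Cdh1* (log2 fold changes 2.37, 1.56 and 1.198, adjusted p = 0.0804, 0.101 and 0.103). TG5 was highest and TG1 lowest of HSD17B1TG both in epithelium markers (4055 and 925 FPKM) and in the sum of *Hoxb2* to *Hoxb8* (292 and 96.8 FPKM), and WT4 was highest of WT in both (1971 and 135 FPKM). The part of the epithelium in the HoxB values was not tested.

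**Figure D5:**
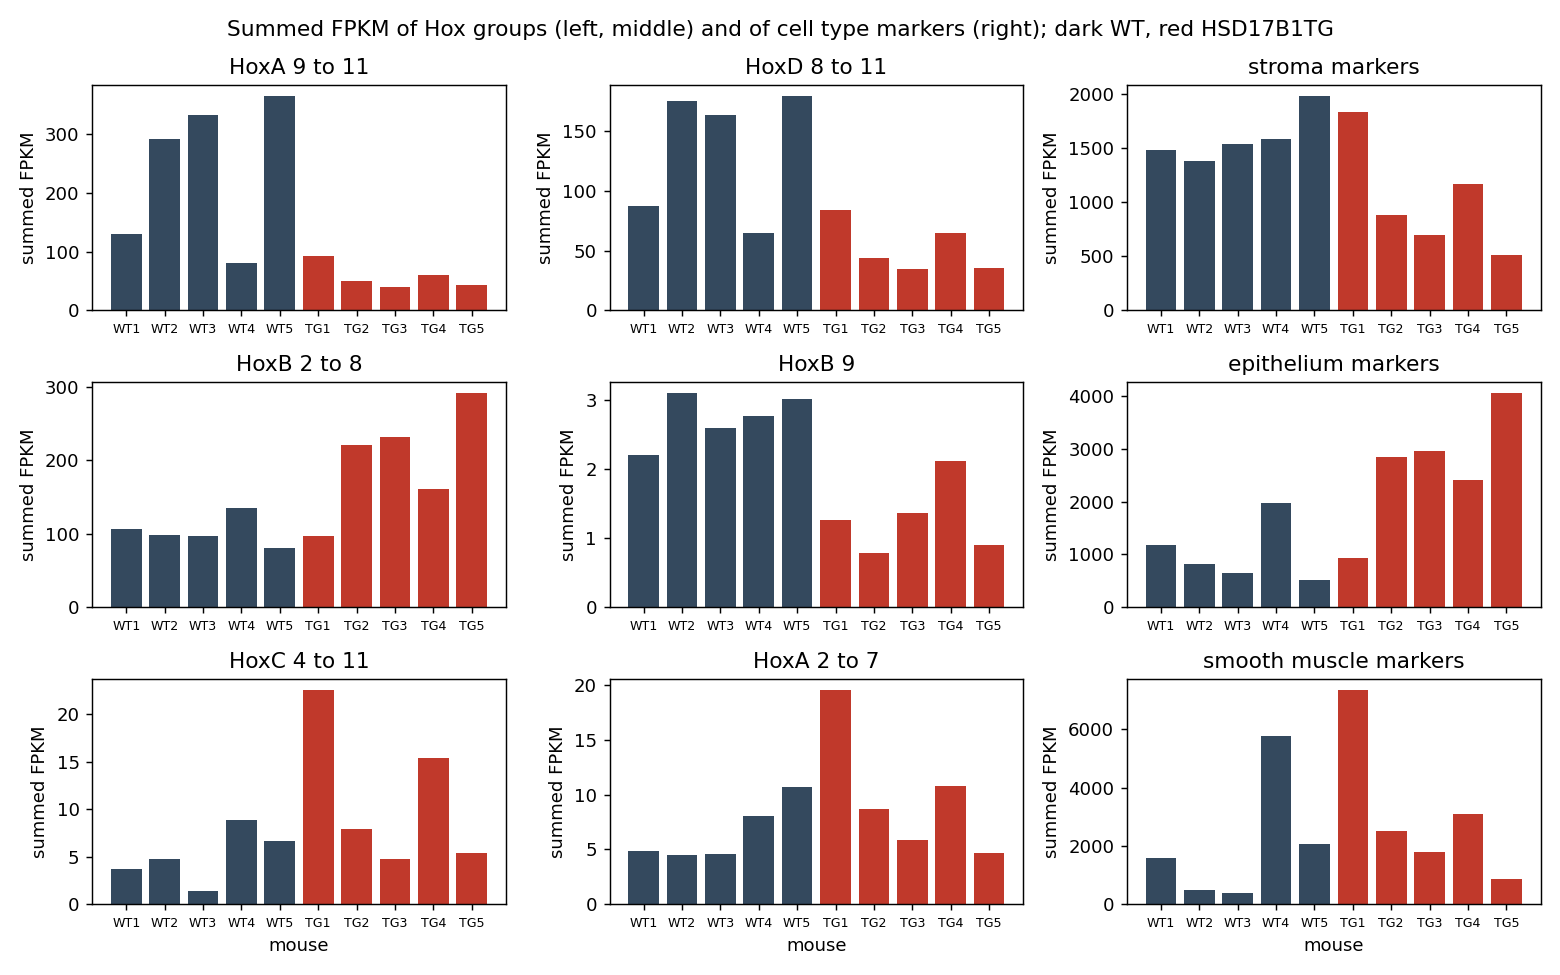
Summed FPKM per mouse (WT dark, HSD17B1TG red) of groups of Hox genes in the left and middle columns and of stroma, epithelium and smooth muscle markers in the right column; each panel starts at 0 and has its own scale. TG1 (7358) and WT4 (5785) stand out in smooth muscle markers, TG1 is highest in HoxC (22.6) and in HoxA 2 to 7 (19.5), and the HoxB 2 to 8 sum is highest in TG5 (292).

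Of 6 endothelium markers 5 were lower and 0 were called in edgeR (3 lower at an unadjusted p under 0.05), with DESeq2 calling 1 down (*Emcn*) and the limma fits 0. *Emcn*, *Cdh5* and *Tek* had log2 fold changes of -1.36, -1.29 and -1.26. Of 6 leucocyte markers 5 were lower and *Laptm5* rose (log2 fold change 1.28, adjusted p = 0.0312 in edgeR), while *Ptprc* and *Cd52* had log2 fold changes of -1.08 and -1.37 (adjusted p = 0.0558 and 0.0639 in edgeR) and were called down by DESeq2 (adjusted p = 0.0131 and 0.0116) but by neither limma fit. Markers of the squamous epithelium of cervix and vagina summed to 6.28 to 46.1 FPKM in HSD17B1TG and 5.14 to 8.05 in WT, and *Krt13* rose (1.44 to 16.4 FPKM in HSD17B1TG, 0 to 0.925 in WT, adjusted p = 0.0426 in edgeR). *Ly6d* and *Krt5* had log2 fold changes of 2.26 and 2.48 and did not pass in edgeR. Of this list DESeq2 called *Krt13* and *Ly6d* up, limma on log2 FPKM called 1 and limma voom 0. *Hoxa13*, the gene of the vaginal end of the tract, stayed near 0, with 0.174 FPKM in TG1, 0.0465 in TG2 and 0 in the other mice. Oviduct markers summed to at most 9.61 FPKM, ovary markers to at most 11.8 and adipocyte markers to at most 25.1 (TG4), and edgeR called 0 of those tested, with 1 oviduct marker higher at an unadjusted p under 0.05 and 0 called by DESeq2 or limma. Of these, *Dnah5*, *Rsph1* and *Ovgp1* of the oviduct had log2 fold changes of 1.91, 0.82 and -0.74 in edgeR, and *Foxj1*, a regulator of cilia that was too low for edgeR and for the limit of 1 FPKM, was at 0 to 0.0735 FPKM in HSD17B1TG and 0.129 to 1.02 in WT, without overlap (DESeq2 log2 fold change -4.22, adjusted p = 0.000242). *Star* and *Gdf9* of the ovary had 0.88 and -0.12.

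Noncoding genes lie between the Hox genes of each cluster. *Hoxa11os* (chr6:52244393-52249799, plus strand), which is transcribed against *Hoxa11*, was at 4.66, 3.18, 1.71, 4.70 and 3.30 FPKM in TG1 to TG5 and at 9.29, 21.4, 45.4, 5.89 and 24.8 FPKM in WT1 to WT5. It fell as *Hoxa11* did, with no overlap between the groups (log2 fold change -2.61, SE 0.527, adjusted p = 0.026 in edgeR). As stated for *Hoxa11*, reads of the 2 genes cannot be told apart, so the 2 falls are not separate results. *Hoxb5os*, on the strand opposite to *Hoxb5*, had 13.5 ± 6.42 FPKM in HSD17B1TG and 7.42 ± 1.49 in WT (log2 fold change 0.85, adjusted p = 0.126). Of 12 noncoding genes listed, 7 were tested, 1 fell and 0 rose in edgeR (1 was higher at an unadjusted p under 0.05, and DESeq2 and limma called 0 up). DESeq2 called 2 down, limma on log2 FPKM 1 and limma voom 0, so that *Hoxa11os* was not called by voom. *Hotair*, a long noncoding RNA of the HoxC cluster known for recruiting Polycomb proteins, had at most 8 counts in any mouse.

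The list includes 2 microRNA genes of HoxB, whose counts in mRNA libraries measure the precursor region and not the mature microRNA. *Mir196a-1* lies on the 5′ side of *Hoxb9*, and its mature RNA is known to target the *Hoxb8* transcript. *Mir10a* lies between *Hoxb4* and *Hoxb5*. The mature sequences are shown with the seed (bases 2 to 8) in capitals, as given by RefSeq in GRCm38.p6.
mmu-miR-196a-5p, chr11:96265187-96265208: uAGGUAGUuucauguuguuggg
mmu-miR-10a-5p, chr11:96317186-96317208: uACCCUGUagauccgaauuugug
*Mir196a-1* was at 3.68, 2.25, 2.61, 1.82 and 0 FPKM in TG1 to TG5 and at 8.37, 6.19, 8.51, 3.32 and 15.8 FPKM in WT1 to WT5, with at most 33 counts. The groups overlapped through TG1 and WT4. It had too few counts for the edgeR test, while DESeq2 called it down (log2 fold change -2.002, adjusted p = 0.0228). *Mir10a* was at 9.86 ± 6.58 FPKM in HSD17B1TG and 7.04 ± 2.32 in WT, within the spread between mice.

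Protein-coding genes just outside the clusters were compared next. The 3 nearest protein-coding genes that have a row in the deposited table, on each side of each cluster, gave 24 genes, of which 23 were tested. In edgeR 0 of them rose (2 were higher at an unadjusted p under 0.05, and DESeq2 and limma voom called 1 up) and 1 fell, *Jazf1* (6.33, 5.58, 3.37, 1.83 and 1.87 FPKM in TG1 to TG5, 19.9, 13.2, 31.0, 14.1 and 28.4 in WT1 to WT5), a zinc finger gene on the HoxA chromosome (log2 fold change -2.49, SE 0.414, adjusted p = 0.0177). *Skap1* beside HoxB had a log2 fold change of -2.06 (adjusted p = 0.039) at a mean under 1 FPKM in both groups, and *Hnrnpa1* beside HoxC one of -0.70 (adjusted p = 0.0511). The median log2 fold change of the flanking genes was 0.081.

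HOX proteins bind DNA together with TALE homeodomain proteins of the PBX, MEIS and PKNOX (PREP) families. Of the 9 genes of these families 0 passed in edgeR, while 4 had an unadjusted p under 0.05, 2 in each direction, and 1 was called down by DESeq2 and by each limma fit. That gene was *Pknox2* (2.98 ± 1.56 FPKM in HSD17B1TG, 6.79 ± 2.03 in WT, log2 fold change -1.196, adjusted p = 0.0501 in edgeR). *Meis1* was at 17.3, 9.71, 8.81, 14.7 and 9.22 FPKM in TG1 to TG5 and at 6.45, 7.03, 4.48, 10.3 and 8.08 FPKM in WT1 to WT5 (log2 fold change 0.71, adjusted p = 0.109). It was highest in TG1 and TG4 in HSD17B1TG and in WT4 in WT, the mice that also led their groups in HoxC. *Pknox1* had a log2 fold change of -0.53 (adjusted p = 0.103).

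Hox clusters are kept silent by Polycomb complexes, which modify and compact chromatin, and kept active by trithorax-type enzymes. Of 12 genes of Polycomb complex PRC2 0 passed in edgeR, with 1 higher and 1 lower at an unadjusted p under 0.05. Likewise 0 of 17 genes of PRC1 passed, with 2 higher at an unadjusted p under 0.05, and 0 of 17 activators, with 2 lower. DESeq2 and limma called 0 genes of these 3 lists. The smallest adjusted p-values in edgeR were those of *Psip1*, whose product tethers the MLL complex (log2 fold change -0.80, adjusted p = 0.0618), *Phf1* of PRC2 (0.66, adjusted p = 0.0781) and *Pcgf5* of PRC1 (0.81, adjusted p = 0.0806). *Psip1* was at 11.1, 6.59, 11.1, 11.01 and 7.43 FPKM in TG1 to TG5 and at 14.5, 18.6, 23.7, 11.3 and 13.8 FPKM in WT1 to WT5, without overlap. The next in each list, *Epop*, *Rbbp4*, *Pcgf3*, *Wdr5* and *Kmt2c*, had log2 fold changes from -1.21 to 0.34 and adjusted p-values from 0.152 to 0.213 in edgeR.

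Among 21 other patterning and differentiation genes of the Müllerian duct, 17 were tested, 3 fell and 0 rose in edgeR (1 was higher at an unadjusted p under 0.05, and DESeq2 and limma called 0 up). *Msx1*, a homeobox gene of the cycling endometrium, was at 12.5, 5.25, 7.33, 7.05 and 4.42 FPKM in TG1 to TG5 and at 39.7, 90.8, 94.2, 20.4 and 22.3 FPKM in WT1 to WT5 (log2 fold change -2.88, SE 0.504, adjusted p = 0.0207). *Wnt5a*, a signal of the uterine mesenchyme, had 8.05 ± 4.62 FPKM in HSD17B1TG and 38.6 ± 17.3 in WT (log2 fold change -2.27, adjusted p = 0.0246). *Hand2*, a progesterone-induced stromal transcription factor, had 5.60 ± 1.62 and 22.2 ± 9.47 FPKM (log2 fold change -1.998, adjusted p = 0.0177). The groups did not overlap in any of these 3 genes. Of the 17 tested genes 8 were higher and 9 lower, with a median log2 fold change of -0.06. *Emx2*, which HOXA10 is known to repress in endometrium, was at 35.3 ± 1.54 FPKM in HSD17B1TG and 30.8 ± 6.18 in WT (log2 fold change 0.19, adjusted p = 0.449), while *Hoxa10* differed 4.40-fold.

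The 7 genes linked to *Hoxa10* and *Hoxa11* in implantation included 6 tested genes, of which edgeR called 0, with 1 higher and 1 lower at an unadjusted p under 0.05, DESeq2 called *Lif* up and limma called 0. *Lif*, the cytokine of implantation, was at 3.03, 6.74, 7.69, 5.42 and 8.97 FPKM in TG1 to TG5 and at 1.90, 0.593, 1.94, 4.65 and 0.673 FPKM in WT1 to WT5 (log2 fold change 1.71, SE 0.537, adjusted p = 0.0773 in edgeR). *Itgb3*, an integrin that HOXA10 is known to activate, was at 10.5 ± 4.86 FPKM in HSD17B1TG and 22.3 ± 12.4 in WT (log2 fold change -1.09, adjusted p = 0.133). *Fkbp4*, a cochaperone of steroid receptors, had a log2 fold change of -0.42. The receptors of estrogen and progesterone named here did not pass either. *Esr1* was at 33.9 ± 4.83 and 34.9 ± 6.50 FPKM in HSD17B1TG and WT (log2 fold change -0.05, adjusted p = 0.889) and *Pgr* at 29.8 ± 17.4 and 48.2 ± 18.1 (log2 fold change -0.70, adjusted p = 0.298). Neither had an unadjusted p under 0.05, and DESeq2 and limma called 0 of them.

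The directions of the called Hox genes held in every fit with 1 mouse left out, but their calls did not. Without TG2, TG5, WT2, WT3 or WT5 edgeR called 0 Hox genes, while 5 to 7 higher and 9 to 10 lower ones had an unadjusted p under 0.05. The share of all genes under that unadjusted p is not given here. Of all genes only 65 to 149 were then called. The log2 fold change lay between -2.36 and -1.93 for *Hoxa10*, between -2.60 and -2.21 for *Hoxa11* and between 1.01 and 1.27 for *Hoxb5* over the 10 fits, and these genes were called in 4, 4 and 5 of them.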

How the data were processed

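Uterine mRNA of 10 mice was sequenced as paired reads. The authors aligned them with HISAT2 2.0.5 to GRCm38 (Ensembl 94 genes). A single table was deposited, with raw counts per gene and mouse. Which program counted reads, and whether by strand, is not given in the sources used here. The same table holds a deposited signal, which is the count divided by a size factor per mouse, and the deposited FPKM, computed with the gene length of the table. The log2 fold change, the p-value and the adjusted p-value deposited by the authors come from their own DESeq2 comparison and were not used, nor were the tables of gene ontology terms and pathways made from it.

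Groups are the genotypes that the labels give, and the labels name no batch. Total counts of 14817228 to 23271988 per mouse limit the precision of low genes, and 3 counts were taken as the limit of detection. This limit covers counting error only. No 2 libraries of a group agreed within sampling noise.

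The whole table of raw counts was fitted in edgeR 4.0.16 under R 4.3.3 (filterByExpr, TMM, quasi-likelihood test, Benjamini-Hochberg over 16993 genes). Thresholds follow the study's methods: adjusted p under 0.05, fold change over 2 and mean FPKM over 1 in either group. Counts at an unadjusted p under 0.05 are given without the share over all genes, so they do not set a list apart from the other genes. The Hox genes were also compared by exact permutation of the group labels on log2(FPKM + 1), two-sided. Alternatives were DESeq2 1.42.0, limma 3.58.1 (voom, or log2 FPKM with a pseudocount of 1 or 0.1), DESeq2's size factors in edgeR, library totals, no filter, other thresholds and each mouse left out. The fits were tested on simulated counts with 200 changed genes.

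Hox genes with a mean over 1 FPKM are named with values, the rest by counts and range. Of each other list the called genes and the 3 with the smallest p are named, and *Esr1*, *Pgr*, *Hotair*, *Hoxa11os*, *Emx2* and *Itgb3* always. Further genes (*Lum*, *Dcn*, *Dpt*, *Col1a1*, *Foxj1*, *Hoxb3os* and *Mir196a-1*) were named after their values were seen. The members and lists were chosen with earlier results of these data known. Of the 35 Hox genes, 33 have the same coordinates in GENCODE M21, from which overlaps were taken. Sequences are from RefSeq. A few genes of the lists are not reported here by name.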

Additional observations from a re-analysis of the deposited data

Results flagged for a closer look

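Among the 22 Hox genes with a mean over 1 FPKM, each group of 5 mice was examined for a mouse far from the others, which made 44 groups. In 2 of them a mouse lay farther out than Dixon's 95% limit allows, which is about the rate of 1 in 20 that chance gives. *Hoxb6* was at 52.6 FPKM in WT4 and between 33.0 and 36.7 in the other WT mice. *Hoxb5* was at 5.91 FPKM in WT5 and between 7.41 and 7.84 in the other WT mice, a small gap in a group that lay close together, and all HSD17B1TG mice were above it.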

How the results depend on the processing

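With all 10 mice, 504 values of the log2 fold changes of 72 named genes were computed under the alternatives. Of these 453 kept their direction and their side of the adjusted p threshold of 0.05, 13 lost it, 37 gained it and 1 changed sign. DESeq2 called 8 Hox genes down, and 906 genes up and 666 down in all. Library totals alone gave 0 Hox genes up (edgeR, 6 higher at an unadjusted p under 0.05) and 7 down, with 494 genes down in all. Limma on log2(FPKM + 1) called 3 Hox genes and 187 genes in all down, and limma voom 3 and 189. An adjusted p under 0.05 with no further threshold called 568 genes up, and an adjusted p under 0.1 called 791 up and 608 down, 8 Hox genes among the latter. RLE factors, no filter on low counts and limma on log2(FPKM + 0.1) left the Hox counts at 2 up and 5 down, although the last of these called *Hoxb9* in place of *Hoxd8*. Without TG1 and WT4, chosen after seeing the data, 5 Hox genes were called up and 8 down, and 1131 genes up and 861 down in all.

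With 1 mouse left out, edgeR called 0 to 4 Hox genes up and 0 to 8 down, and 38 to 888 genes up and 27 to 651 down in all. The count of Hox genes was 0 in both directions without TG2, TG5, WT2, WT3 or WT5, it was 1 and 1 without TG4, 1 up and 2 down without WT1, 2 up and 3 down without TG3, 4 up and 7 down without TG1 and 3 up and 8 down without WT4. Some genes changed sign, among them *Ovgp1*, which had a log2 fold change of -0.74 with all mice. Over the fits with 1 mouse left out, the log2 fold change ran from -0.169 (without TG1) to 0.720 for *Hoxa6*, from -0.124 (without TG3) to 0.354 for *Hoxb2*, which was -0.0038 without WT5, and from -0.164 to 0.049 (without WT4) for *Esr1*, which was 0.021 without TG4. It ran from -1.31 to 0.168 (without WT3) for *Ovgp1* and from -0.434 to 0.142 (without TG2) for *Gdf9*, which was 0.0991 without TG3 and 0.122 without WT5. With library totals *Hoxb2* had -0.0073, and without TG1 and WT4 *Hoxa6* had -0.173 and *Esr1* 0.017. The cause of these changes was not tested. The smaller pseudocount left every exact p of a Hox gene on the same side of 0.05. No paired analysis was possible because the labels carry no replicate numbers shared by the groups.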
